A study of Mus musculus with 21 samples.

Results

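Expression of 7 genes of the cellular response to low oxygen and of glucose use was followed in the injured mouse brain: Hif1a, Vegfa, Hilpda, Ldha, Slc2a1, Bnip3 and Bnip3l. They were selected by gene symbol, and all 7 had 1 probe each among the 757 probes of the NanoString nCounter Mouse Neuroinflammation panel, of which 703 carried a symbol and 54 did not. This panel counts individual RNA molecules with barcoded probes, without amplification. RNA came from the right hemisphere of 21 male C57BL6J mice in 7 groups of 3. Sham mice had anesthesia and a scalp incision only, and were 12, 13 and 16 weeks old in replicates 1, 2 and 3. The other 6 groups had a unilateral controlled cortical impact, a model of traumatic brain injury (TBI), and were sampled on day 3 at 12 weeks of age, on day 7 at 13 weeks or on day 28 at 16 weeks. At each time point 1 injured group received PBS as vehicle, and the other received CR2-Crry, a complement inhibitor targeted to sites of complement activation, at 16 mg/kg. Both were given intravenously 1 h after injury, and day 28 groups had further intraperitoneal doses. Day 28 therefore differed from the earlier days in dosing and age as well as in time. Each injured group shared its age with only 1 sham mouse, and age rose with time after injury. CR2-Crry was not given to sham mice, and 1 hemisphere pools the impact site with distant tissue.

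Hif1a encodes the oxygen-regulated subunit of the transcription factor HIF-1. With enough oxygen this protein is hydroxylated and degraded, so its activity is set largely at the protein level and transcript counts do not measure it. In low oxygen HIF-1 binds short DNA elements near genes for glucose uptake (Slc2a1, the glucose transporter GLUT1 of the blood-brain barrier), lactate production (Ldha, lactate dehydrogenase A), vessel growth (Vegfa, a growth factor for endothelial cells), lipid storage (Hilpda, which inhibits lipolysis at lipid droplets) and the removal of mitochondria (Bnip3 and Bnip3l, receptors on the outer mitochondrial membrane).

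On the mouse GRCm38.p6 assembly, RefSeq places Hif1a at chr12:73901324-73947554, Vegfa at chr17:46016993-46032377, Hilpda at chr6:29272488-29275449, Ldha at chr7:46842274-46855627, Slc2a1 at chr4:119108745-119137330, Bnip3 at chr7:138890836-138909506 and Bnip3l at chr14:66985238-67008877. The exon that each probe binds was not located here. RefSeq promoter windows, from 250 bases before to 50 bases after a start site, matched 6 of the 7 genes, all but Bnip3l, and were searched on both strands for the core letters of the HIF element, ACGTG or GCGTG; the longer word CACGTG, which other factors also bind, holds a match on each strand. The window with the most matches before the start held 3 before it for Hif1a, 5 for Bnip3, 2 for Slc2a1, 3 for Hilpda and 5 for Ldha, which had 2 more after the start. For Hif1a, Hilpda and Ldha this start lay inside the gene range given above. The outermost Hilpda start had 0 matches before it and 1 after. Vegfa had 0 matches at its outermost start and 2 at an internal start. At least 1 match was present in 43.77% of 32851 mouse promoters and in 54.95% of 737 promoters of tested panel genes, and CACGTG in 7.15% of all. These shares count each window once, while Vegfa, Hilpda and Ldha had more than 1 window each. The 150 bases before the start are shown for Hif1a, Ldha and Bnip3, because all 3 hold CACGTG. With the authors' scaling Hif1a rose after injury while Ldha and Bnip3 fell, and with samples centred on their medians all 3 had log2 changes below 0. Capitals mark the matches and, for a match on the opposite strand, its complement.
Hif1a, chr12:73907717-73907866, plus strand: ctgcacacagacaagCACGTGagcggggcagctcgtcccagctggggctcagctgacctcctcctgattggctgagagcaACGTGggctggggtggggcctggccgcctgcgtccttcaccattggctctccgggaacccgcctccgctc
Ldha, chr7:46845654-46845803, plus strand: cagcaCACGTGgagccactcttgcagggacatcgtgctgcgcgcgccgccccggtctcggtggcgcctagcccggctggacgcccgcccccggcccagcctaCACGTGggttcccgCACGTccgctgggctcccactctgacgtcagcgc
Bnip3, chr7:138909507-138909656, minus strand: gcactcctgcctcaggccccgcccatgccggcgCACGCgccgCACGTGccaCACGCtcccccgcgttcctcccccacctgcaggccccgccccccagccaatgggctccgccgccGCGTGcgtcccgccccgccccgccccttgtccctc
A match describes the letters only.

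Values are normalized counts, scaled by the authors to housekeeping genes. In each sample at least 99.87% of probes had a value lying no more than 0.0075 normalized counts from a whole number of equal steps, and each sample held between 750585 and 1023041 steps in total. Its size was 0.78618 to 0.87408 in sham samples and 0.95913 to 1.25475 in injured samples, so the scaling itself differed between sham and injury. The median over probes was 247.4 in sham, 382.0, 413.1 and 310.6 in PBS TBI on days 3, 7 and 28, and 397.9, 367.4 and 317.4 in CR2-Crry TBI. Tests used limma on log2 values over 740 probes that passed a filter on low values, all 7 genes included. A gene was called where the Benjamini-Hochberg adjusted p over the 740 probes was under 0.05. Each group of 3 mice is small, and all comparisons with sham share the same 3 sham samples.

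Hif1a rose after injury at every time point and in both treatment arms. Its counts were 2961, 2971 and 2719.8 in sham, 4226, 4307 and 3981 in PBS TBI on day 3, 4449, 4551 and 3935 on day 7, and 3429, 3708 and 3576 on day 28. Every injured sample lay above every sham sample. In PBS TBI the log2 change from sham was 0.53 on day 3 (SE 0.058, limma adjusted p = 1.38e-07), 0.58 on day 7 (adjusted p = 3.86e-08) and 0.31 on day 28 (adjusted p = 0.000207), that is 1.45-fold, 1.49-fold and 1.24-fold. In CR2-Crry TBI counts were 4014, 3947 and 4477 on day 3, 3968, 3894 and 3808 on day 7, and 3494, 3327 and 3548 on day 28, with log2 changes of 0.52, 0.43 and 0.26 (limma adjusted p = 1.81e-07, 2.64e-06 and 0.000924). In the order of group means, days 3 and 7 of both arms came first and overlapped with their neighbours, both day 28 groups followed and overlapped with each other, and sham was lowest. The direction of the Hif1a change depends on the scaling, as given with the median-centred values further on.

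Few partners of HIF-1 were on the panel: of 11 listed genes for HIF subunits and oxygen sensing, 2 had a named probe, the coactivators Crebbp and Ep300. Both were lower in PBS TBI on day 3, Crebbp with a log2 change of -0.28 (limma adjusted p = 6.09e-05) and Ep300 with -0.15 (adjusted p = 0.0339). On days 7 and 28 of PBS TBI neither was called.

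Vegfa was lower than sham in all 6 injured groups. Counts were 915, 889 and 779 in sham, 584, 866 and 539 in PBS TBI on day 3, 629.9, 588 and 624 on day 7, and 689.8, 572 and 657 on day 28. All samples of PBS TBI lay below sham except replicate 2 of day 3, at 866, which lay inside the sham range. Log2 changes in PBS TBI were -0.41, -0.49 and -0.43 (SE 0.127 each, limma adjusted p = 0.00895, 0.00245 and 0.00875). In CR2-Crry TBI counts were 512, 493 and 608 on day 3, 624, 651 and 612 on day 7, and 682, 688 and 629 on day 28, each below every sham sample. The log2 changes were -0.68, -0.45 and -0.37 (limma adjusted p = 0.000104, 0.00501 and 0.0209).

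The call in PBS TBI on day 3 was lost without replicate 1 of that group (log2 change -0.33, limma adjusted p = 0.0509) or without replicate 3 (-0.27, adjusted p = 0.0728), and the one in CR2-Crry TBI on day 28 without sham replicate 1 (adjusted p = 0.0762), sham replicate 2 (adjusted p = 0.0615) or replicate 3 of that group (adjusted p = 0.07). Of 13 listed genes of the VEGF family, its receptors and angiopoietins, 3 were tested. Tie1, an endothelial receptor kinase, rose in PBS TBI on day 3 (log2 change 0.74, limma adjusted p = 0.000126) and day 7 (0.63, adjusted p = 0.00058). Flt1, VEGF receptor 1, fell on day 3 (-0.33, adjusted p = 0.0206) and was not called on days 7 and 28, and Nrp2, a co-receptor, rose on day 7 (0.32, adjusted p = 0.0048).

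Hilpda was the least abundant of the 7 genes, at 94.3, 87.4 and 83.7 in sham. It rose in PBS TBI on day 3, at 109, 127 and 97.3, each above sham, with a log2 change of 0.32 (SE 0.128, limma adjusted p = 0.0334). No other group was called, with log2 changes of 0.16 and 0.10 in PBS TBI on days 7 and 28 and of 0.22, 0.12 and 0.12 in CR2-Crry TBI. The day 3 call was lost without replicate 1 or 2 of that group (adjusted p = 0.0581 and 0.173) and without sham replicate 2 or 3 (adjusted p = 0.071 and 0.1). Among 28 other listed hypoxia-induced genes 4 were tested. Hmox1, which degrades heme and also answers to oxidative stress, rose most, with log2 changes of 5.01, 2.93 and 0.91 in PBS TBI on days 3, 7 and 28 (limma adjusted p = 3.32e-14, 1.11e-11 and 0.000144). Sesn2, a stress-induced regulator of mTORC1, rose on days 3 and 7 (0.42 and 0.62, adjusted p = 0.00168 and 3.68e-05). Ccng2, a cyclin that restrains the cell cycle, fell slightly on days 3 and 28 (-0.14 and -0.15, adjusted p = 0.0351 and 0.0387), and the histone demethylase Kdm3a was called on none of the 3 days.

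**Figure D1:**
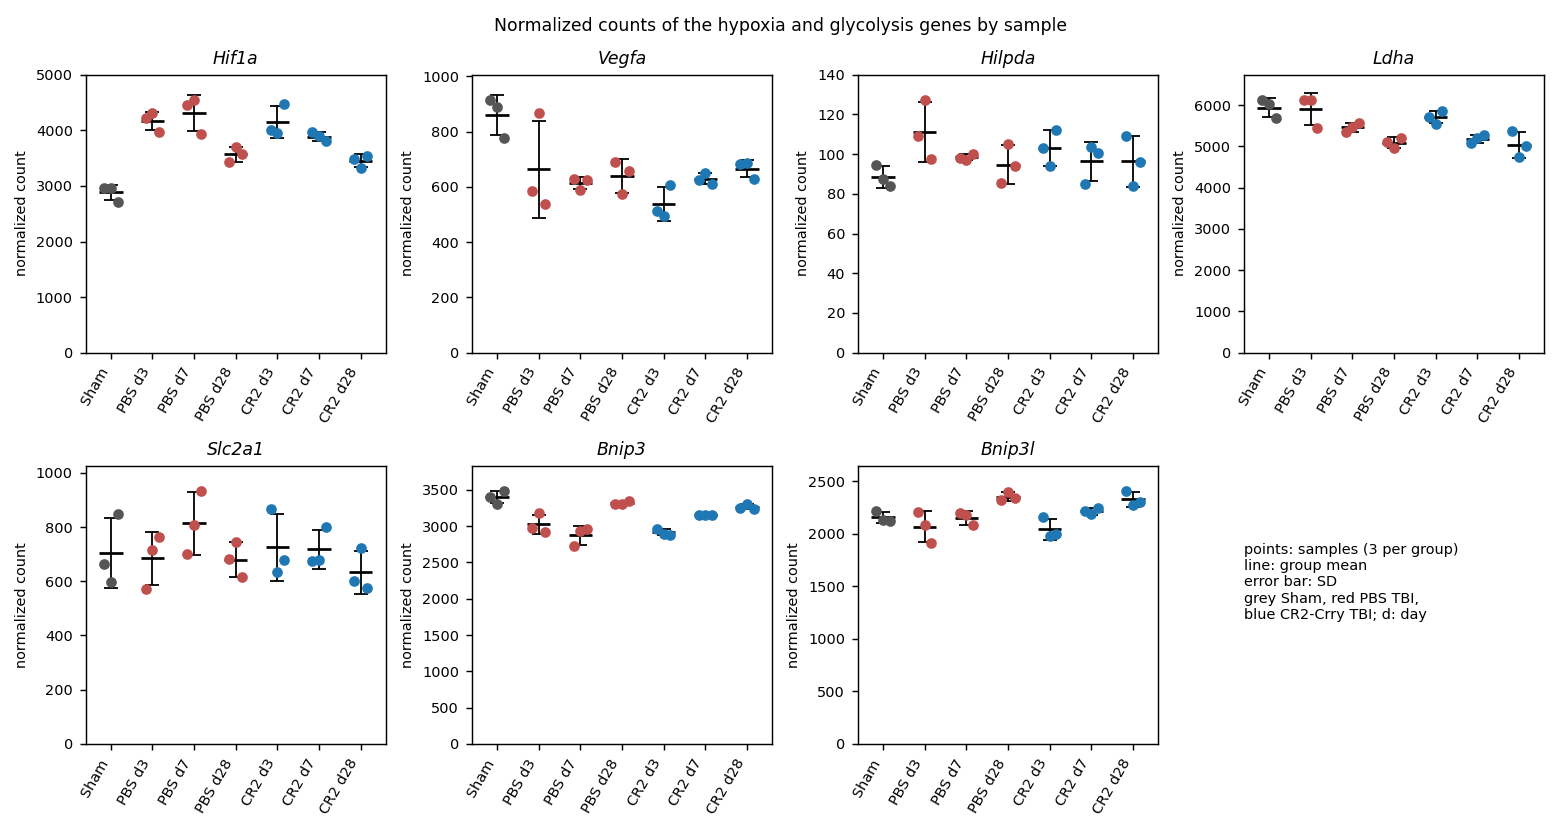
Normalized counts (y axis, from 0) of each gene in every sample of the 7 groups (x axis), with the group mean as a line and the SD as an error bar. Hif1a was higher in all injured samples than in sham, Vegfa was lower in all but 1, and each injured group overlapped with sham for Slc2a1.

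Ldha was the most abundant of the 7 genes, at 6128, 6017 and 5677 in sham. With the authors' scaling it fell late after injury. With samples centred on their medians Ldha in PBS TBI was already called lower on day 3 (-0.614, limma adjusted p = 2.73e-08). Its centred change was -0.849 on day 7 and -0.562 on day 28. The counts and tests that follow use the authors' scaling. In PBS TBI it was 6116, 6126 and 5454 on day 3, overlapping with sham, 5354, 5468 and 5569 on day 7, and 5116, 4961 and 5202 on day 28. Both later days lay wholly below sham. Log2 changes were -0.01 on day 3 (limma adjusted p = 0.843), -0.12 on day 7 (SE 0.049, adjusted p = 0.0367) and -0.22 on day 28 (adjusted p = 0.000967). In CR2-Crry TBI they were -0.06, -0.20 and -0.24 (limma adjusted p = 0.32, 0.00193 and 0.000453), with counts of 5083 to 5278 on day 7 and 4743 to 5363 on day 28. The PBS call on day 7 was lost without any 1 of sham replicates 1 and 2 and PBS TBI day 7 replicates 1 and 2 (adjusted p = 0.135, 0.0959, 0.107 and 0.0722).

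Slc2a1 was called in no comparison with the authors' scaling and all samples. Its result depends on the scaling, as given with the median-centred values further on. Its counts were 662, 599 and 847 in sham and ranged from 573 to 932 over PBS TBI and from 576 to 866 over CR2-Crry TBI, and all groups overlapped with sham. The 95% interval of the log2 change in PBS TBI ran from -0.34 to 0.28 on day 3. It ran from -0.09 to 0.53 on day 7 and from -0.35 to 0.27 on day 28. With 3 mice a group, each interval held values for both a rise and a fall. Without sham replicate 3 the day 7 change was 0.36 and was called (limma adjusted p = 0.0444). Of 25 other listed genes for glycolysis and glucose or lactate transport, 1 was tested: Slc2a5, the fructose transporter GLUT5, found on microglia. It rose on day 3 in PBS TBI (log2 change 0.88, limma adjusted p = 9.27e-06) and CR2-Crry TBI (0.80, adjusted p = 2.67e-05). On day 7 it was called in CR2-Crry TBI only (0.34, adjusted p = 0.035), and PBS TBI had 0.20 (adjusted p = 0.199); the arms differed by 0.14 (adjusted p = 0.487).

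With the authors' scaling Bnip3 was lower on days 3 and 7 and was not called on day 28. Counts were 3406, 3311 and 3482 in sham, 2980.3, 3177 and 2917 in PBS TBI on day 3, 2723, 2932 and 2965 on day 7, and 3307, 3299.9 and 3339.7 on day 28. All PBS TBI samples of days 3 and 7 lay below sham, and PBS TBI on day 28 overlapped with it. Log2 changes in PBS TBI were -0.17 (SE 0.038, limma adjusted p = 0.000593), -0.24 (adjusted p = 1.19e-05) and -0.04 (adjusted p = 0.449). In CR2-Crry TBI counts were 2961, 2897 and 2884 on day 3, 3148, 3159.9 and 3153 on day 7, and 3249, 3304 and 3239.6 on day 28. The log2 changes were -0.22 (limma adjusted p = 3.76e-05), -0.11 (adjusted p = 0.0188) and -0.06 (adjusted p = 0.196), and the day 7 call was lost without sham replicate 3 (adjusted p = 0.0821). Although not called, all CR2-Crry TBI samples of day 28 lay below every sham sample. With samples centred on their medians Bnip3 was called lower on day 28 in PBS TBI (-0.376, limma adjusted p = 3.18e-05). The same held in CR2-Crry TBI (-0.388, adjusted p = 2.09e-05).

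Bnip3l, the paralog of Bnip3, was not called on days 3 and 7 and rose on day 28 in PBS TBI. Counts were 2215, 2133 and 2122 in sham, and in PBS TBI 2203, 2086 and 1914 on day 3, 2194, 2177 and 2078 on day 7, and 2321, 2398 and 2341 on day 28. Days 3 and 7 overlapped with sham, and day 28 lay above it. The day 28 change was 0.13 on the log2 scale (SE 0.047, limma adjusted p = 0.0327) in PBS TBI and 0.11 (adjusted p = 0.0588, not called) in CR2-Crry TBI, and these changes did not differ by a called amount (-0.02, 95% interval -0.12 to 0.08, adjusted p = 0.999). The PBS call was lost without sham replicate 2 or 3 (adjusted p = 0.0851 and 0.0904) or PBS TBI day 28 replicate 2 or 3 (adjusted p = 0.0994 and 0.06). Of 38 listed genes for autophagy and mitophagy 14 were tested, of which 5 rose and 4 fell in PBS TBI on day 3, 6 and 2 on day 7, and 4 and 1 on day 28. The lysosomal membrane genes Lamp2 and Lamp1 rose on all 3 days (log2 changes of 0.73, 0.91 and 0.44 and of 0.60, 0.90 and 0.42). Atg7, which drives the conjugation of LC3, rose by 0.25 on days 3 and 7, and Atg9a, which carries membrane to the forming autophagosome, was lower on all 3 days (-0.21, -0.23 and -0.13). The median log2 change over the 14 genes was 0.04, 0.06 and 0.04 on days 3, 7 and 28, against 0.30, 0.36 and 0.21 over all 740 probes.

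**Figure D2:**
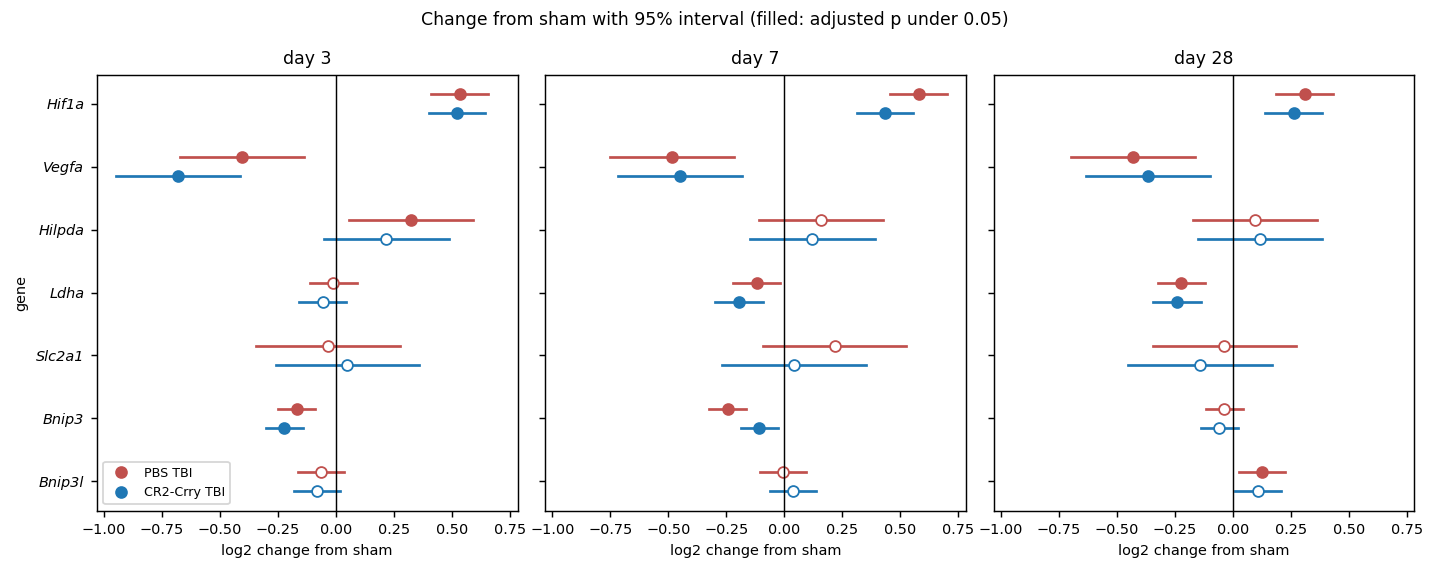
Log2 change from sham (x axis) of each gene (y axis) on days 3, 7 and 28 in PBS TBI (red) and CR2-Crry TBI (blue), with 95% intervals; filled points passed the adjusted p of 0.05. Hif1a and Vegfa were called on every day in both arms and Slc2a1 on none, while Bnip3 was called on days 3 and 7 and Ldha on days 7 and 28.

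Of the 7 genes, 1 or 2 were called higher than sham in each injured group. In PBS TBI 2 of 7 were higher and 2 lower on day 3, where 51.6% of all probes were called higher and 13.2% lower. On day 7 it was 1 higher and 3 lower, against 57.3% and 9.46% of all probes, and on day 28 it was 2 and 2, against 44.5% and 8.11%. In CR2-Crry TBI the counts were 1 and 2 on day 3 (53% and 11.9% of all probes), 1 and 3 on day 7 (48% and 10.3%) and 1 and 2 on day 28 (44.3% and 10.3%). The panel was built around neuroinflammation genes. The median log2 change of the 7 genes was -0.03, -0.005 and -0.04 in PBS TBI and -0.06, 0.04 and -0.06 in CR2-Crry TBI on days 3, 7 and 28.

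The share of rising genes depends on the scaling. When each sample was centred on its own median over the tested probes, log2 changes from sham shifted by -0.60, -0.73 and -0.34 in PBS TBI on days 3, 7 and 28. The calls over all probes then split into 26.5% higher and 52.3% lower on day 3, 25.9% and 54.5% on day 7, and 21.2% and 38% on day 28. In CR2-Crry TBI they split into 24.5% and 53.1%, 23.2% and 52%, and 23.2% and 39.9%. None of the 7 genes was higher than sham on this scale in any group, and in PBS TBI 6, 7 and 5 of them were lower on days 3, 7 and 28. Hif1a then changed by -0.07 on day 3 (limma adjusted p = 0.307), -0.15 on day 7 (adjusted p = 0.0303) and -0.03 on day 28 (adjusted p = 0.673), so its rise was relative to the housekeeping genes and not to the median probe. Hilpda on day 3 turned to -0.28 (adjusted p = 0.0424) and Bnip3l on day 28 to -0.22 (adjusted p = 0.00515). Slc2a1 was called lower in PBS TBI by -0.635, -0.512 and -0.376 on days 3, 7 and 28 (limma adjusted p = 0.000611, 0.00356 and 0.0338). In CR2-Crry TBI it was called lower by -0.596, -0.519 and -0.472. Vegfa, Ldha and Bnip3 had log2 changes below 0 under both scalings on all 3 days, although without centring Ldha was not called on day 3 or Bnip3 on day 28. The shift is the same for every probe of a comparison, so it applies to the other listed genes too. In PBS TBI the rises of Sesn2 and Atg7 on days 3 and 7 were smaller than the shift. So were those of Tie1 and Nrp2 on day 7. The rises of Hmox1 on all 3 days and of Tie1 and Slc2a5 on day 3 were larger than it. Those of Lamp2 on all 3 days and of Lamp1 on days 7 and 28 were also larger. Lamp1 on day 3, at 0.599, did not exceed the shift of -0.602 in size.

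**Figure D3:**
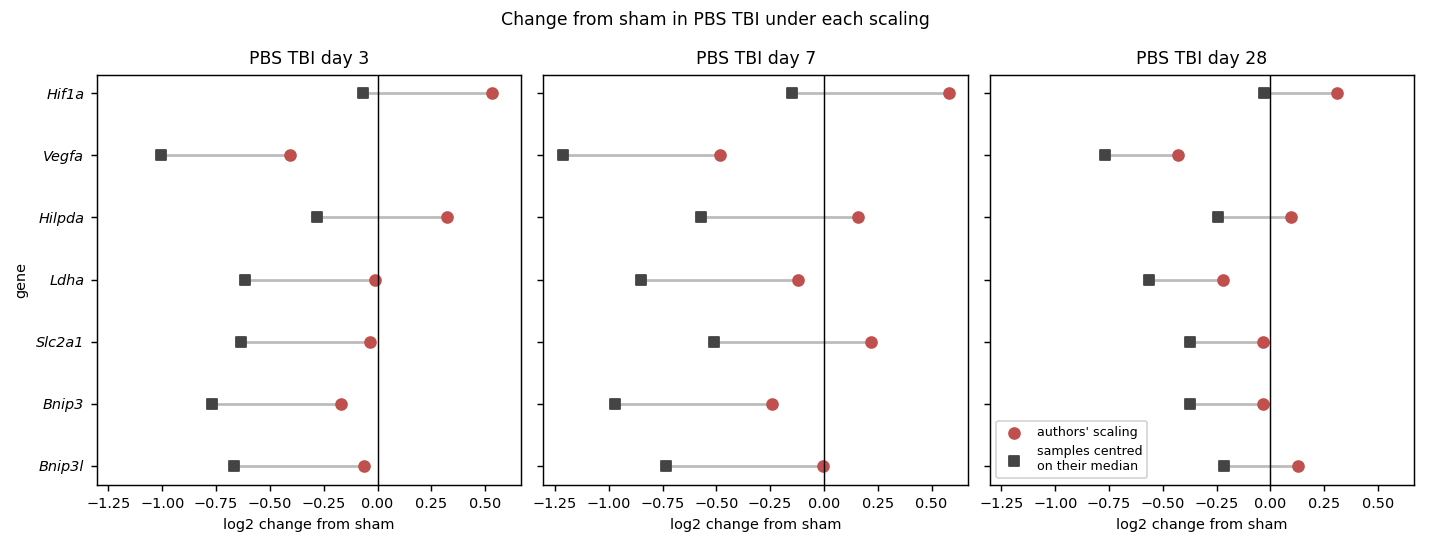
Log2 change from sham (x axis) of each gene (y axis) in PBS TBI with the authors' housekeeping scaling (circles) and with each sample centred on its median (squares). Centring shifted all genes alike (-0.60, -0.73 and -0.34 for the panels from left to right), which carried Hif1a across 0 and left Vegfa, Ldha and Bnip3 below it.

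Ratios of 2 of these genes within a sample do not depend on how that sample was scaled. Hif1a relative to Ldha was higher than in sham by 0.55, 0.70 and 0.53 on the log2 scale in PBS TBI on days 3, 7 and 28, and by 0.58, 0.63 and 0.50 in CR2-Crry TBI. Hif1a relative to Vegfa was higher by 0.94, 1.06 and 0.74 in PBS TBI and by 1.204, 0.88 and 0.63 in CR2-Crry TBI. Neither ratio overlapped between any injured group and sham. Bnip3 relative to Bnip3l differed from sham by -0.11, -0.24 and -0.16 in PBS TBI and by -0.14, -0.15 and -0.17 in CR2-Crry TBI, again without overlap with sham. For Bnip3 over Bnip3l the gap was narrow in PBS TBI on day 3, with a highest value of 0.608 against a lowest of 0.62 in sham. These ratios were chosen after their values were seen and were not tested. How often other pairs of probes stand apart from sham was not counted, so the lack of overlap is not particular to these pairs.

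**Figure D4:**
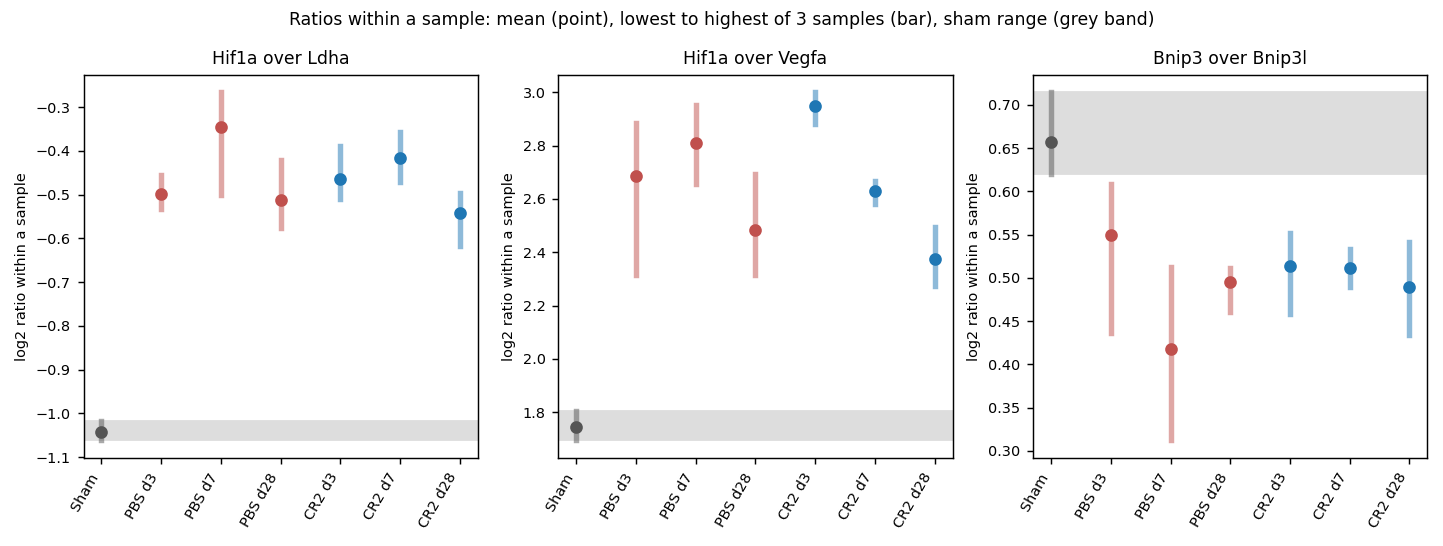
Log2 ratio of 2 genes within a sample (y axis) in each group (x axis), with the mean as a point, the range of 3 samples as a bar and the sham range as a grey band. No injured group reached the sham band in any of the 3 ratios, and the mean of Hif1a over Ldha in PBS TBI lay 0.53 to 0.70 above that of sham.

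To examine whether complement inhibition altered these genes, CR2-Crry TBI was compared with PBS TBI on each day. Bnip3 on day 7 was the only call among the 7 genes, and CR2-Crry samples at 3148 to 3159.9 all lay above PBS samples at 2723 to 2965. The log2 difference was 0.14 (SE 0.038, limma adjusted p = 0.0387), or 1.098-fold, where 7.43% of all probes (55 of 740) were called on day 7 and the median over all probes was -0.11. The 55 calls fell to 8 or 1 without PBS TBI day 7 replicate 1 or 2 and to 4, 0 or 6 without CR2-Crry TBI day 7 replicate 1, 2 or 3, and were 86 without PBS TBI day 7 replicate 3. Leaving out any sample of the CR2-Crry group, or PBS TBI day 7 replicate 1 or 2, ended the call (adjusted p = 0.12, 0.0887, 0.0691, 0.189 and 0.0914), and so did several other settings. With samples centred on their medians, which shifted this comparison by 0.17, Bnip3 differed by 0.30 (adjusted p = 0.0173) and Bnip3l by 0.21 (adjusted p = 0.039). The difference on day 7 exceeded that on day 3 by 0.19 (SE 0.053, unadjusted p = 0.00235 in limma, adjusted p = 0.175), which was not called.

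Among the 4 other hypoxia-induced genes tested, Hmox1 was lower with CR2-Crry on day 7 (log2 difference -0.74, SE 0.166, limma adjusted p = 0.0218), a larger difference than for any of the 7 genes, and the other 3 were not called. On days 3 and 28 Hmox1 differed by -0.04 and 0.07 (adjusted p = 0.999 each). On day 7, 0 probes were called without CR2-Crry TBI day 7 replicate 2 and 0 in a test without moderation. The day 7 call for Hmox1 was thus lost in both settings. Hif1a on day 7 had a log2 difference of -0.15 between CR2-Crry and PBS TBI (95% interval -0.27 to -0.02, unadjusted p = 0.0215 in limma, adjusted p = 0.121), and was called only without PBS TBI day 7 replicate 3 (-0.21, adjusted p = 0.0288) among the left-out samples. Vegfa on day 3 had a log2 difference of -0.28 (95% interval -0.54 to -0.01, unadjusted p = 0.0436 in limma, adjusted p = 0.999). On day 3 limma called 0 genes, and 0% of all probes, between arms, with 27 probes and 1 of the 7 genes at an unadjusted p under 0.05. On day 28 it called 0 genes and 0% of probes, with 15 probes and 0 of the 7 genes under that level, and averaged over days 0 genes and 0%, with 65 probes and 0 of the 7 genes. A test without moderation also called 0 probes in each of these. With only the compared groups in the fit 1 probe was called on day 3, and averaged over days 2 were called without PBS TBI day 7 replicate 3 and 1 without CR2-Crry TBI day 3 replicate 3. On day 28 the lowest and highest differences were -0.11 for Slc2a1 (95% interval -0.42 to 0.20) and 0.06 for Vegfa (-0.21 to 0.33). The change of the treatment difference from day 3 to 7, and from day 7 to 28, was called for 0 of the 7 genes and 0% of probes each, with 124 and 144 probes and 1 gene each, Bnip3, at an unadjusted p under 0.05 in limma, and 0 probes without moderation. From day 3 to 7, however, 21 probes were called with only the compared groups in the fit and 2 with sample weights. From day 7 to 28, 78 were called with sample weights, 79 without CR2-Crry TBI day 28 replicate 2, 27 without PBS TBI day 28 replicate 2 and 3 without PBS TBI day 7 replicate 3.

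Between days, with the authors' scaling, Hif1a fell and both mitophagy receptors rose from day 7 to day 28 in PBS TBI. Log2 changes were -0.27 for Hif1a (SE 0.058, limma adjusted p = 0.000845), 0.21 for Bnip3 (adjusted p = 0.000178) and 0.13 for Bnip3l (adjusted p = 0.0305), with no overlap between the days, where 45.1% of all probes were called. Centring on the sample median turned the Hif1a change to 0.12 (adjusted p = 0.0985). It called 5 of the 7 genes higher, Bnip3, Bnip3l, Vegfa (0.444), Hilpda (0.327) and Ldha (0.287), where 346 of 740 probes were. A test without moderation lost the calls of Hif1a, Bnip3 and Bnip3l (adjusted p = 0.0941, 0.0874 and 0.0651). In CR2-Crry TBI the same step gave 1 call with the authors' scaling, Hif1a at -0.17 (limma adjusted p = 0.0367), against 25% of all probes, and Bnip3 changed by 0.05 (adjusted p = 0.389). From day 3 to day 7 none of the 7 genes was called by limma in PBS TBI, where 25.1% of probes were, with Ldha (-0.11, adjusted p = 0.112) under an unadjusted p of 0.05. Without moderation 0 of the 7 genes and 1 of 740 probes were called in that comparison. In CR2-Crry TBI Bnip3 rose by 0.11 (adjusted p = 0.039), against 19.1% of all probes, while Ldha at -0.14 and Bnip3l at 0.12 were not called (adjusted p = 0.0554 and 0.0929). The Bnip3l call from day 7 to 28 in PBS TBI was lost without replicate 2 or 3 of day 7 (adjusted p = 0.0504 and 0.116) or of day 28 (adjusted p = 0.0927 and 0.0595). Of the calls in CR2-Crry TBI, that for Bnip3 was lost without any 1 of its 6 samples (adjusted p = 0.0526 to 0.108), and that for Hif1a without 5 of its 6 (adjusted p = 0.0538 to 0.149).

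Markers of several cell types moved with the same comparisons, and in bulk tissue fewer cells of a type and less RNA per cell cannot be told apart. Of 11 neuronal markers 7 were lower than sham in PBS TBI on each day, and their summed count was 60342 to 61257 in sham, 46579 to 50268 on day 3, 46824 to 50740 on day 7 and 51173 to 51787 on day 28. Of 9 microglial markers all 9 were higher on each day, with sums of 4158 to 4472 in sham and 13270 to 14267, 15247 to 18818 and 7985 to 9174 after injury. Of 5 astrocyte markers 5, 5 and 4 were higher, with sums of 16131 to 16981 in sham and 22874 to 24159, 25122 to 29285 and 21225 to 22324 after injury. Thus each sum stood apart from sham on every day, as did Hif1a. Monocyte and macrophage markers were higher in 4, 4 and 3 of 4 (sums of 158 to 176 in sham, 912 to 1005, 701 to 792 and 224 to 353), and endothelial markers, which cover the cells that hold much Slc2a1, in 5, 3 and 1 of 8 and lower in 1 of 8 on day 3 (2691 to 2862 in sham, 3887 to 4161, 2937 to 3996 and 3004 to 3552). Oligodendrocyte markers were higher in 4, 5 and 2 of 7 (13976 to 17288 in sham, 18346 to 22888, 20384 to 21305 and 15788 to 17545), and the 1 neutrophil marker, Csf3r, was higher on each day. These marker values use the authors' scaling. There 51.6%, 57.3% and 44.5% of all probes were called higher in PBS TBI on days 3, 7 and 28. The shares called lower were 13.2%, 9.46% and 8.11%. Marker sums were not recomputed with samples centred on their medians, so a rise in them is relative to the housekeeping genes. Centring shifted PBS TBI by -0.60, -0.73 and -0.34. Median log2 changes were 1.535, 1.945 and 0.864 for microglial markers and 2.418, 2.308 and 0.842 for monocyte and macrophage markers, larger than the shift. Those of astrocyte (0.607, 0.764 and 0.499), endothelial (0.609, 0.206 and 0.068) and oligodendrocyte markers (0.458, 0.309 and 0.01) were near or below it, except astrocyte markers on day 28. No marker of these lists was at 0, and red blood cell markers had no named probe. Between arms on day 7, 3 of 9 microglial and 1 of 4 monocyte and macrophage markers were lower with CR2-Crry, with sums of 13284 to 13883 and 355 to 474. In that comparison 7.43% of all probes were called, and 0 without CR2-Crry TBI day 7 replicate 2 or without moderation. The part of these markers in the changes of the 7 genes was not tested.

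The probes whose values most resembled each gene over the 21 samples are given as a description, since samples share groups and scaling. For Hif1a they were the cytokine receptor genes Il10rb and Ifnar2 and the lysosomal Lamp2, with Pearson r of 0.965, 0.965 and 0.964. After centring each sample on its median these became -0.34, 0.03 and -0.12, so this likeness followed the scaling. For Bnip3 they were Nlgn1, a synaptic adhesion gene, Map2k4, a stress kinase, and Ppp3r1, a calcineurin subunit (r of 0.865, 0.856 and 0.853), and centring raised these to 0.98, 0.99 and 0.984. Centring also raised r of Bnip3 with Bnip3l from 0.545 to 0.969 and with Ldha from -0.169 to 0.884. The higher values after centring thus followed the scaling too and were not particular to these probes. For Vegfa they were the neurotrophin Bdnf, the calcineurin gene Ppp3cb and Rab6b (0.758, 0.755 and 0.749), and for Bnip3l Plekhb1, Prkacb and Tnf (0.784, 0.757 and 0.754). After centring these became 0.924, 0.941 and 0.935 for Vegfa and 0.96, 0.981 and 0.622 for Bnip3l. Ldha was most like Akt2, Srxn1 and Calr (0.773, 0.726 and 0.661), Hilpda like Clic4, Il1b and Ptx3 (0.767, 0.759 and 0.738, and 0.872, 0.557 and -0.147 after centring), and Slc2a1 like Bcl2l1, F3 and Sesn1 (0.784, 0.725 and 0.715). The centred values were 0.937, 0.869 and 0.947 for Ldha and 0.85, 0.877 and 0.845 for Slc2a1. Among the 7 genes themselves, Hif1a and Bnip3 had r = -0.837 and Hif1a and Vegfa r = -0.597, which became 0.608 and 0.685 after centring.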

How the data were processed

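The authors deposited normalized count signal, 1 column per sample, made in nSolver by background thresholding and scaling to the geometric mean of housekeeping genes (version not given in the sources used here). No shared floor was seen in the values, since the lowest value of a sample occurred 1 to 3 times. Groups came from the sample labels. The 7 genes, the gene lists and the tests were chosen with earlier results of these data known. Probes over 20 in at least 3 of 21 samples were tested. Log2 values without a pseudocount were fitted in limma 3.58.1 (R 4.3.3) with 1 mean per group over all samples and a mean-variance trend, with Benjamini-Hochberg adjustment over all 740 probes. The fit was tested on simulated data. P-values measure the spread between mice of 1 experiment, which among the sham mice includes their differing ages. Alternatives covered the moderation, weights, filters, pseudocount, centring, replicate block, adjustment and left-out samples. Named genes were all 7 members, up to 4 genes per list with the smallest adjusted p in PBS TBI on day 3, up to 3 per marker list, and 3 probes most like each member. The custom complement panel was not used here.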

Additional observations from a re-analysis of the deposited data

How the results depend on the processing

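Over the single-gene values in all 16 comparisons, settings other than median centring and left-out samples kept direction and call in 928 cases, lost a call in 24, gained one in 12 and turned the direction in 2; left-out samples did so in 746, 38, 5 and 51 cases, and centring in 55, 0, 17 and 40. A pseudocount of 20, no filter, and a mean of at least 50 moved no count of calls by more than 1.5 times. Without a mean-variance trend the number of the 7 genes called became 0 (from 1) in CR2-Crry against PBS day 7, 0 (from 1) in CR2-Crry TBI from day 3 to 7 and 0 (from 1) in CR2-Crry TBI from day 7 to 28. With only the groups compared in the fit the number of the 7 genes called became 2 (from 4) in PBS TBI day 3 against sham, 0 (from 1) in CR2-Crry against PBS day 7 and 0 (from 1) in CR2-Crry TBI from day 3 to 7. With sample weights the number of the 7 genes called became 2 (from 1) in CR2-Crry against PBS day 7, 1 (from 0) in PBS TBI from day 3 to 7, 2 (from 1) in CR2-Crry TBI from day 3 to 7 and 1 (from 0) in the treatment difference from day 7 to 28. Weights also turned Slc2a1 in PBS TBI day 3 against sham to 0.04 and Vegfa in the treatment difference from day 7 to 28 to -0.038. In a test without moderation the number of the 7 genes called became 2 (from 4) in PBS TBI day 3 against sham, 1 (from 3) in CR2-Crry TBI day 28 against sham, 0 (from 1) in CR2-Crry against PBS day 7, 0 (from 3) in PBS TBI from day 7 to 28, 0 (from 1) in CR2-Crry TBI from day 3 to 7 and 0 (from 1) in CR2-Crry TBI from day 7 to 28. Adjusting only over probes with an unadjusted p under 0.05, as the study's methods did between injured groups, passes every probe it selects by construction, and there the number of the 7 genes called became 1 (from 0) in CR2-Crry against PBS day 3, 2 (from 1) in CR2-Crry against PBS day 7, 1 (from 0) in PBS TBI from day 3 to 7, 3 (from 1) in CR2-Crry TBI from day 3 to 7, 1 (from 0) in the treatment difference from day 3 to 7 and 1 (from 0) in the treatment difference from day 7 to 28. Replicate numbers did not pair the samples: deviations of same-numbered samples correlated at -0.02 on average and others at 0.01. With a replicate block the number of the 7 genes called became 0 (from 1) in CR2-Crry against PBS day 7 and 0 (from 1) in CR2-Crry TBI from day 3 to 7. The block gained a call for Bnip3l in CR2-Crry TBI day 28 against sham (0.109, limma adjusted p = 0.0419). The planned count test in edgeR was not run, and the values were treated as scaled signal. The cause of these changes was not tested.

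With samples centred on their medians the number of the 7 genes called became 7 (from 4) in PBS TBI day 7 against sham, 6 (from 3) in CR2-Crry TBI day 3 against sham, 5 (from 3) in CR2-Crry TBI day 28 against sham, 2 (from 1) in CR2-Crry against PBS day 7, 2 (from 0) in PBS TBI from day 3 to 7, 5 (from 3) in PBS TBI from day 7 to 28, 2 (from 1) in CR2-Crry TBI from day 3 to 7 and 3 (from 1) in CR2-Crry TBI from day 7 to 28. In PBS TBI day 3 against sham the direction turned for Hif1a to -0.069 and Hilpda to -0.279. In PBS TBI day 7 against sham the direction turned for Hif1a to -0.15, Hilpda to -0.572 and Slc2a1 to -0.512. In PBS TBI day 28 against sham the direction turned for Hif1a to -0.032, Hilpda to -0.245 and Bnip3l to -0.215. In CR2-Crry TBI day 3 against sham the direction turned for Hif1a to -0.123, Hilpda to -0.428 and Slc2a1 to -0.596. In CR2-Crry TBI day 7 against sham the direction turned for Hif1a to -0.129, Hilpda to -0.441, Slc2a1 to -0.519 and Bnip3l to -0.524. In CR2-Crry TBI day 28 against sham the direction turned for Hif1a to -0.067, Hilpda to -0.213 and Bnip3l to -0.22. In CR2-Crry against PBS day 7 the direction turned for Hif1a to 0.022, Hilpda to 0.131 and Ldha to 0.093. In CR2-Crry against PBS averaged over days the direction turned for Hilpda to 0.005. In PBS TBI from day 3 to 7 the direction turned for Hif1a to -0.081 and Bnip3l to -0.069. In PBS TBI from day 7 to 28 the direction turned for Hif1a to 0.119, Hilpda to 0.327, Ldha to 0.287 and Slc2a1 to 0.136. In CR2-Crry TBI from day 3 to 7 the direction turned for Slc2a1 to 0.078. In CR2-Crry TBI from day 7 to 28 the direction turned for Hif1a to 0.061, Hilpda to 0.228, Ldha to 0.188 and Slc2a1 to 0.047. In the treatment difference from day 3 to 7 the direction turned for Hif1a to 0.075 and Ldha to 0.181. In the treatment difference from day 7 to 28 the direction turned for Hif1a to -0.057, Vegfa to -0.13, Hilpda to -0.098, Ldha to -0.099 and Slc2a1 to -0.089.

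Leaving out 1 sample at a time, the number of the 7 genes called ranged over 2 to 4 in PBS TBI day 3 against sham, 0 to 1 in PBS TBI from day 3 to 7, 0 to 2 in CR2-Crry against PBS day 7, 0 to 1 in CR2-Crry TBI from day 3 to 7 and 0 to 1 in CR2-Crry TBI from day 7 to 28. Log2 values that were not called also crossed 0. Ldha ranged from -0.044 to 0.044 in PBS TBI day 3 against sham, -0.058 to 0.026 in the treatment difference from day 3 to 7 and -0.064 to 0.025 in CR2-Crry against PBS day 28. Slc2a1 ranged from -0.141 to 0.109 in PBS TBI day 3 against sham, -0.143 to 0.107 in PBS TBI day 28 against sham, -0.085 to 0.192 in CR2-Crry TBI day 3 against sham, -0.065 to 0.186 in CR2-Crry TBI day 7 against sham, -0.25 to 0.001 in CR2-Crry TBI day 28 against sham, -0.051 to 0.175 in CR2-Crry against PBS day 3, -0.036 to 0.169 in the treatment difference from day 7 to 28 and -0.098 to 0.128 in CR2-Crry TBI from day 3 to 7. Bnip3l ranged from -0.02 to 0.019 in PBS TBI day 7 against sham, -0.071 to 0.03 in CR2-Crry against PBS day 3, -0.015 to 0.019 in CR2-Crry against PBS averaged over days and -0.041 to 0 in CR2-Crry against PBS day 28. Hif1a ranged from -0.067 to 0.024 in CR2-Crry against PBS day 3. Vegfa ranged from -0.104 to 0.01 in CR2-Crry against PBS averaged over days, -0.213 to 0.129 in PBS TBI from day 3 to 7, -0.001 to 0.133 in PBS TBI from day 7 to 28, -0.051 to 0.083 in the treatment difference from day 7 to 28 and -0.016 to 0.119 in CR2-Crry against PBS day 28. Hilpda ranged from -0.033 to 0.161 in the treatment difference from day 3 to 7, -0.092 to 0.051 in CR2-Crry against PBS day 7, -0.139 to 0.012 in PBS TBI from day 7 to 28, -0.037 to 0.154 in the treatment difference from day 7 to 28, -0.073 to 0.118 in CR2-Crry against PBS day 28 and -0.098 to 0.092 in CR2-Crry TBI from day 7 to 28.

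The number of all tested probes called also moved by more than 1.5 times in some comparisons. In CR2-Crry against PBS day 7 the 55 calls became 20 without a mean-variance trend and 20 with the replicate block, 84 with only the compared groups, 141 with sample weights, 87 after centring, 0 without moderation and 0 to 86 with 1 sample left out. Without moderation 229 were called in PBS TBI day 28 against sham (from 389), 172 in CR2-Crry TBI day 28 against sham (from 404), 1 in PBS TBI from day 3 to 7 (from 186), 131 in PBS TBI from day 7 to 28 (from 334), 11 in CR2-Crry TBI from day 3 to 7 (from 141) and 1 in CR2-Crry TBI from day 7 to 28 (from 185). Centring gave 331 in the last, and leaving out PBS TBI day 7 replicate 2 gave 123 in PBS TBI from day 3 to 7. Adjusting only over probes with an unadjusted p under 0.05 called 27, 211 and 15 between arms on days 3, 7 and 28, 65 averaged over days, 226 in CR2-Crry TBI from day 3 to 7, and 124 and 144 for the change of the treatment difference.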
